A study of Mus musculus with 4 samples.

Results

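The cytosolic ribosomal protein genes encode the proteins of the large and small ribosomal subunits. They were taken from an array study of fetal mouse brain as every gene with a probe set whose platform annotation gave exactly 1 symbol. That symbol had to be Rpl or Rps with a number and at most the letters a, l or x, or Rplp0 to Rplp2, or Rpsa. Names of S6 kinases and of pseudogenes were left out, and each gene was represented by its brightest probe set. The rule found 59 genes of the 19938 in the table, 37 of the large subunit and 22 of the small subunit.

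Whole brains of C57BL/6J fetuses at embryonic day 16 were compared after prenatal ethanol. Pregnant females had been injected with ethanol at 2.5 g per kg in saline on gestational days 14 and 16, or with an equal volume of saline on the same days as controls. Each Affymetrix array held pooled RNA of 3 mice, with 2 ethanol and 2 control arrays and 12 mice in all, of unknown sex. Nothing in the sources used here gives the litters that entered each pool, so the p-values measure only the spread between these pools. No gene was altered in either group, and single mice cannot be seen behind a pooled array.

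Each ribosome carries nearly all of these proteins in a single copy, and the genes are among the most strongly transcribed in dividing and growing cells. Most of their messenger RNAs begin with an unbroken run of pyrimidines (C or T in the DNA), the 5′ terminal oligopyrimidine motif, through which the growth kinase mTORC1 and the RNA-binding protein Larp1 set their translation and stability. In the fetal brain, ribosome production is high in proliferating progenitors, and loss of 1 copy of several of these genes causes Diamond-Blackfan anaemia with developmental defects. Array values were read as log2 signals, and a difference is the ethanol mean minus the control mean on that scale.

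Pyrimidine runs can be seen in the RefSeq sequences around the start sites of members named in the results. A run can lie wholly before the annotated start, as in Rpl4, and such a run does not show the motif. The windows shown run from 15 bases before the annotated start to 15 bases from it, 5′ to 3′ on the gene's strand in build GRCm38.p6, with the longest pyrimidine run in capitals.
Rpl38 (chr11:114668565-114668594, + strand): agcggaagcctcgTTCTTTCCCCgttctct
Rpl4 (chr9:64173372-64173401, + strand): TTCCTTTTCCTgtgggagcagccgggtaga
Rpl14 (chr9:120571502-120571531, + strand): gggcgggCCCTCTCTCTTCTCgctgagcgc
Rplp2 (chr7:141447636-141447665, + strand): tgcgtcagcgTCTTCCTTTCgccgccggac
Rps10 (chr17:27635230-27635259, - strand): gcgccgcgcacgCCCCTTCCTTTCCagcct
Rps18 (chr17:33955651-33955680, - strand): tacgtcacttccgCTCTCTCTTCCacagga
Rps6 (chr4:86857353-86857382, - strand): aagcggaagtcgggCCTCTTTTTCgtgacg
In other named members the longest run was short in the same window.
Rpsa (chr9:120127751-120127780, + strand): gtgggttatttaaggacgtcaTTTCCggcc
Rpl37a (chr1:72711245-72711274, + strand): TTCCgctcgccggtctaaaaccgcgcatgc
Rps3 (chr7:99483695-99483724, - strand): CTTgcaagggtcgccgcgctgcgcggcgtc
Of the 59 members, 47 matched a promoter in the RefSeq table, with 56 promoters between them. A run of at least 8 pyrimidines stood in 18 of these windows (32.1%), against 12.0% of the 32851 promoters of all genes. A run was counted at any position in the window, whether or not it reached the start. The median longest run was 5 bases in members and 4 in all promoters. The length of 8 was chosen after values had been seen, and a window without such a run says only that these letters are not in it.

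No member passed an adjusted p of 0.05 in the limma test, and the lowest adjusted p of a member was 0.980 (limma, 2-sided, Benjamini-Hochberg over all 19938 genes). The background was the same, since 0% of all genes passed. At an unadjusted p under 0.05 there were 5 members, all lower in the ethanol arrays, namely Rpl38, Rpl37a, Rpsa, Rplp2 and Rps10. That is 8.47% of the members, where 2.94% of all genes passed in either direction, 1.36% with lower values and 1.58% with higher values. With probe sets placed on the gene's own chromosome, the unadjusted limma p was 0.012 for Rpl38 and 0.043 for Rplp2. It was 0.073 for Rps10 and 0.25 for Rpsa, both above the threshold, and Rpl37a had no such probe set. By an ordinary test without shared variance, 0 members passed the adjusted threshold and 2 passed the unadjusted one. The share of all genes past the unadjusted threshold in that test is not given here, so this count has no background beside it. With the fold also required to reach 1.2, Rpl37a and Rpsa were left, 3.39% of members beside 1.02% of all genes (0.537% lower and 0.481% higher). That count was 0 without ethanol 1 (0.712% of all genes in the same fit), 3 without ethanol 2 (6.04%), 0 without control 1 (1.18%) and 4 without control 2 (6.34%).

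As a group the members lay slightly below 0. The difference was negative in 41 of 59 members (69.5%) and positive in 18, where 45.8% of all genes were below 0 and 54.2% above. The median difference was -0.04 in members and 0.009 in all genes. The standard error of a single member's difference ran from 0.065 to 0.16. Each gene's values were also taken relative to its mean over the 4 arrays. The members' median of these relative values varied between arrays of a group with an SD of 0.063 (n = 2 arrays a group). That SD is larger than the size of the median difference. In the small subunit 18 of 22 members were below 0, with a median of -0.06. In the large subunit 23 of 37 were below 0 (62.2%), with a median of -0.04. The medians of the large and small subunits differed by 0.016, which is less than the spread of that quantity between arrays (SD 0.041, n = 2 arrays a group). It turned to -0.0050 among brighter genes and to -0.018 with own-chromosome probe sets. Among genes above the median signal the median was -0.06 for the 55 members left and -0.02 for all genes.

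**Figure D1:**
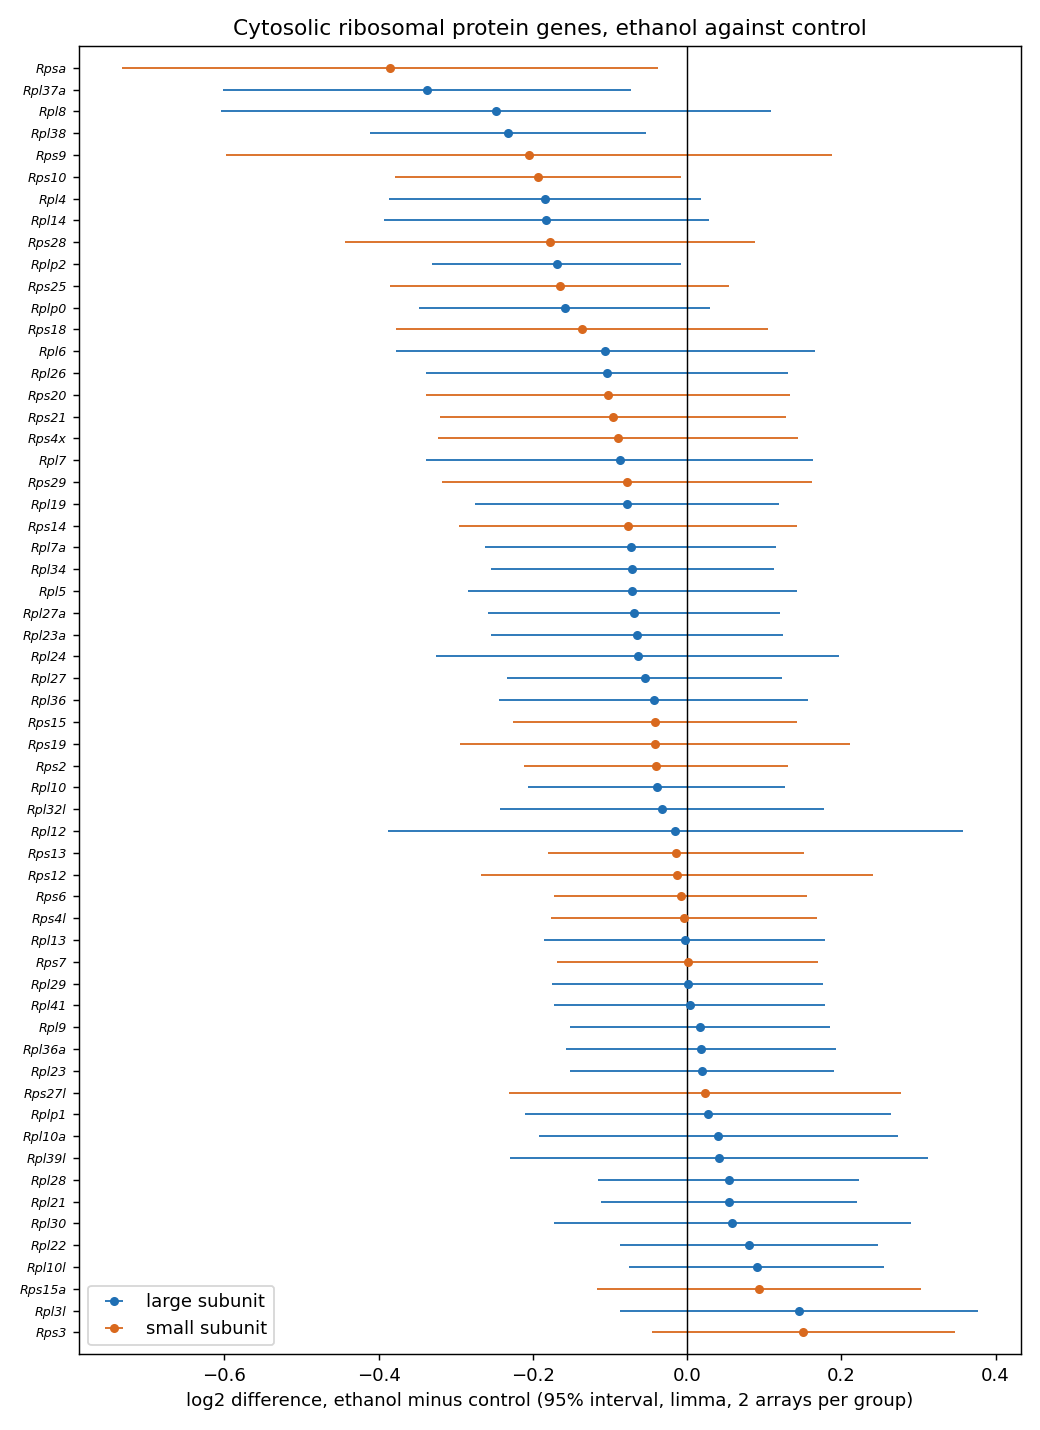
Difference in log2 signal, ethanol minus control, for each of the 59 ribosomal protein genes, with 95% confidence intervals from the limma fit. Genes are ordered by their difference and coloured by subunit. Most points lie left of 0, with Rpsa at -0.39 and Rpl37a at -0.34 the farthest, and the interval covers 0 in all but 5 genes.

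Both ethanol arrays lay below both control arrays in 9 members and above both in 5, which is 14 of 59 or 23.7%. Among all genes the same complete separation was found in 31.4%, with 14.0% lower and 17.4% higher in ethanol. The members' share of separated genes was thus below the background overall and close to it for the lower direction (15.3%). With 2 arrays against 2, an exact permutation test of a single gene cannot give a 2-sided p below 0.333.

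The direction of the group depended on which arrays were set against each other. Control 1 had the highest value in 39 of the 59 members (66.1%), against 26.8% of all genes. Ethanol 1 had the lowest value in 52.5% of the members, against 24.9% of all genes. The median member was -0.15 in ethanol 1 relative to control 1 and -0.07 in ethanol 2 relative to control 1, and 47 of 59 members were lower in each pair. Against control 2 the same medians were -0.01 for ethanol 1 and 0.03 for ethanol 2. The 2 controls differed between themselves by a median of 0.10, with 48 of 59 members higher in control 1, which is larger in size than the median difference between the groups (-0.04). Without control 1 the median difference of the members was 0.00042 and 29 members were below 0, while without control 2 it was -0.11 and 48 were below 0.

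**Figure D2:**
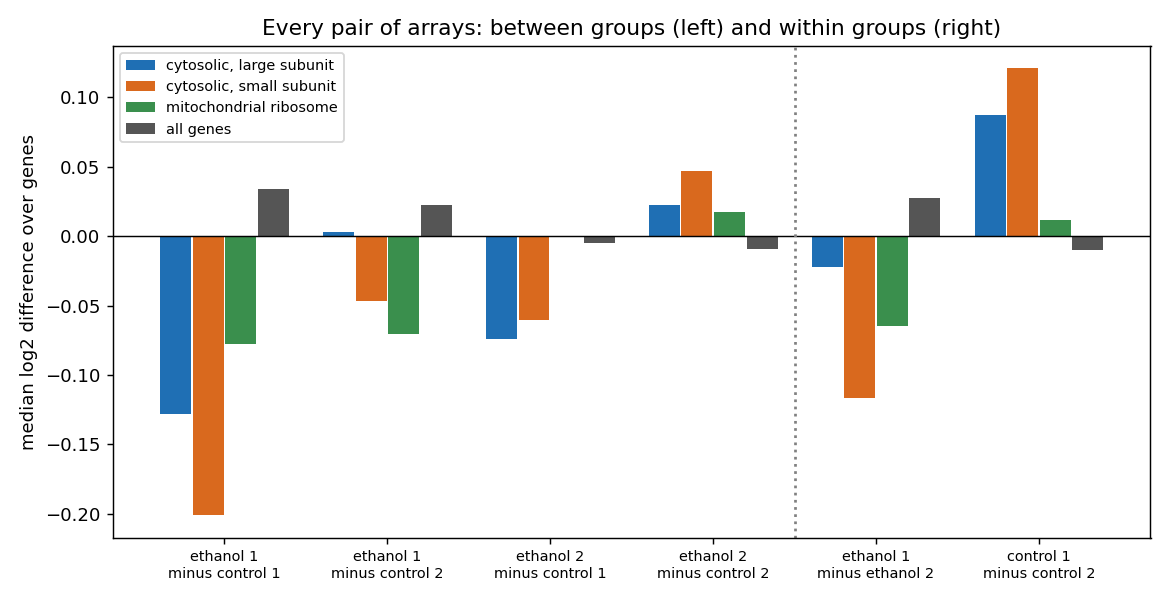
Median log2 difference between each pair of arrays for large-subunit members, small-subunit members, mitochondrial ribosomal protein genes and all genes. Bars left of the dotted line compare the groups, and bars right of it compare arrays of a group. Small-subunit members stand at -0.20 for ethanol 1 against control 1 and at -0.05 for ethanol 1 against control 2, while the medians of all genes lie between -0.01 and 0.03.

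The same array stood apart in markers of other cell types. All 12 skeletal muscle genes listed were highest in control 1, with a summed signal (antilog of the log2 values) of 2235 and 7175 in the ethanol arrays and of 20720 and 2189 in the control arrays. All 10 genes of meninges and pericytes were highest in control 1 too, with sums of 8138 and 10262 in ethanol and 14327 and 8741 in control. All 9 mitosis genes measured were highest there as well, with sums of 6930 and 8337 in ethanol and 10091 and 7591 in control. Of the erythroid genes 6 of 13 had a probe set, with 3 highest in control 1 and sums of 1586 and 2170 in ethanol and 2587 and 1463 in control. The part of these in the members' differences was not tested. Markers of neurons and of neural progenitors, by which the brain tissue was checked, were present on every array, with medians from 13.01 to 13.06 and from 10.42 to 10.60. Of the 4 neuron markers 2 were below 0 and 2 above, with a median difference of -0.00035 and a highest of 0.05. The lowest was Tubb3, which measured 11.15 and 11.45 in ethanol and 11.71 and 11.65 in control. Its difference was -0.38 ± 0.11 (limma adjusted p = 0.980), and its part in the members' differences was not tested either. In whole tissue, fewer cells of a type and less RNA per cell cannot be told apart.

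Among the large-subunit genes, the stalk proteins Rplp0, Rplp1 and Rplp2 form the lateral arm that recruits elongation factors. Rplp2 measured 9.41 and 9.38 in the ethanol arrays and 9.56 and 9.57 in the controls. The groups did not overlap, and replicates lay close together in both. The difference was -0.17 ± 0.07 (SE, n = 2 arrays a group; limma adjusted p = 0.980). Rplp0, the scaffold that anchors the others, measured 12.58 and 12.70 in ethanol and 12.83 and 12.77 in control, a difference of -0.16 ± 0.08 without overlap. Its dimmer probe set on the own chromosome gave -0.08 ± 0.07. Rplp1 measured 12.42 and 12.33 in ethanol and 12.46 and 12.24 in control. Its groups interleaved, with a difference of 0.03 ± 0.10, so the 3 stalk genes did not share a direction.

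Rpl38, known for its part in translating Hox messenger RNAs in the mouse embryo, had the smallest unadjusted p of the members. It measured 12.78 and 12.82 in ethanol and 13.08 and 12.98 in control. Every ethanol value was below every control value, and the difference was -0.23 ± 0.07 (limma adjusted p = 0.980). The gene had 3 further probe sets, whose differences ran from -0.28 to -0.23, so all of its probe sets agreed in sign and size. They were read on the same arrays, so they are not independent. The brightest was not placed on the gene's own chromosome, and the probe set placed there gave -0.28 ± 0.08. Rpl37a, a zinc-binding protein of the large subunit, measured 11.01 and 11.27 in ethanol and 11.53 and 11.43 in control. The groups were apart, with ethanol 1 the lowest, and the difference was -0.34 ± 0.11, or 1.26-fold higher in control. Rpl37a had a single one-symbol probe set, and its numbering places it on another chromosome than the gene's own.

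Rpl4 lines the tunnel through which the new protein leaves the ribosome. It measured 11.88 and 11.98 in ethanol and 12.18 and 12.05 in control, a difference of -0.18 ± 0.08 without overlap. Of 9 listed proteins of the tunnel and its exit, 5 were members and 4 of these were below 0, with a median of -0.08, and the exception was Rpl22. Against control 2, ethanol 1 was lower in 4 of the 5 members and ethanol 2 was higher in 4. Rpl14, another protein of the large subunit, measured 8.50 and 8.65 in ethanol and 8.70 and 8.81 in control, a difference of -0.18 ± 0.08. The groups were apart, but by a gap smaller than the distance between the 2 ethanol arrays. Rpl8, which sits next to the catalytic centre, measured 10.45 and 10.82 in ethanol and 10.99 and 10.78 in control. Its difference of -0.25 ± 0.14 was large among the members, but ethanol 2 lay above control 2. Rpl5, which with Rpl11 and the smallest ribosomal RNA can bind the p53 regulator Mdm2, measured 12.27 and 12.42 in ethanol and 12.47 and 12.36 in control. The groups overlapped, and the difference was -0.07 ± 0.09, or -0.13 ± 0.10 by the probe set on the own chromosome. Rpl11 was found only on a probe set that names several genes.

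Some large-subunit members were higher in the ethanol arrays. Rpl22, an RNA-binding protein that is dispensable for the ribosome itself, measured 9.90 and 9.90 in ethanol and 9.79 and 9.85 in control, a difference of 0.08 ± 0.07 without overlap. Rpl21 measured 13.64 and 13.58 in ethanol and 13.56 and 13.56 in control, a difference of 0.05 ± 0.07. Rpl28 measured 13.36 and 13.32 in ethanol and 13.31 and 13.26 in control, a difference of 0.05 ± 0.07. These differences were close to or below 1 standard error, although the groups were apart in all 3 genes.

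Among the small-subunit genes, Rpsa showed the largest difference of all members. It encodes the ribosomal protein also known as the laminin receptor. It measured 10.34 and 10.76 in ethanol and 10.93 and 10.94 in control. Both controls were nearly equal and ethanol 1 was far below ethanol 2, so the group difference rests largely on 1 array. The difference was -0.39 ± 0.14 (95% interval from -0.73 to -0.04; limma adjusted p = 0.980), or 1.31-fold higher in control. The other 4 probe sets of Rpsa gave differences from -0.21 to -0.01. The probe set that its numbering places on the gene's own chromosome gave -0.11 ± 0.09, with 10.19 and 10.36 in ethanol and 10.43 and 10.35 in control, and there the groups overlapped.

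Rps10, near the entry of the messenger RNA channel and a target of ribosome quality control, measured 12.65 and 12.74 in ethanol and 12.93 and 12.85 in control. The groups were apart and the difference was -0.19 ± 0.07. Its dimmer probe set on the own chromosome gave -0.19 ± 0.09. Rps25, which several viral and cellular messages need for internal initiation, measured 11.65 and 11.80 in ethanol and 11.96 and 11.83 in control, a difference of -0.17 ± 0.09 with the groups just apart. Rps28, Rps18 and Rps9 were lower on average but overlapped. Rps28 measured 10.91 and 11.10 in ethanol and 11.29 and 11.07 in control, a difference of -0.18 ± 0.11. Rps18, a protein of the head of the small subunit, measured 11.38 and 11.52 in ethanol and 11.69 and 11.49 in control, a difference of -0.14 ± 0.10. Rps9 measured 10.07 and 10.34 in ethanol and 10.61 and 10.21 in control, a difference of -0.21 ± 0.16. In all 3 genes control 1 was the highest array and ethanol 2 lay above control 2.

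Of 14 listed proteins of the head of the small subunit, 10 were members and 9 were below 0, with a median of -0.09. Of all genes 45.8% were below 0. Against control 2, ethanol 1 was lower in 9 of these 10 members, but ethanol 2 was higher in 8. Control 1 lay above control 2 in all 10, by a median of 0.13. The member above 0 was Rps3, which lines the entry of the messenger RNA channel and also takes part in DNA repair. Rps3 measured 11.71 and 11.61 in ethanol and 11.56 and 11.45 in control, a difference of 0.15 ± 0.08. The groups were apart, and this was the largest positive difference among the members of the small subunit. Rps15a was higher by 0.09 ± 0.08, with 11.37 and 11.20 in ethanol and 11.16 and 11.22 in control. Rps6, the target of S6 kinase downstream of mTORC1, measured 13.91 and 13.88 in ethanol and 13.92 and 13.89 in control. Its difference of -0.01 ± 0.07 was among the smallest. Rps7, which can bind Mdm2, measured 12.11 and 12.16 in ethanol and 12.16 and 12.11 in control, a difference of 0.00 ± 0.07. Rps19, the first gene linked to Diamond-Blackfan anaemia, measured 8.89 and 9.15 in ethanol and 9.09 and 9.03 in control, a difference of -0.04 ± 0.10. Of 22 listed genes of that disease 12 were members, of which 9 were below 0 with a median of -0.07. Against control 2, ethanol 1 was lower in 10 of these 12 and ethanol 2 was higher in 10.

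**Figure D3:**
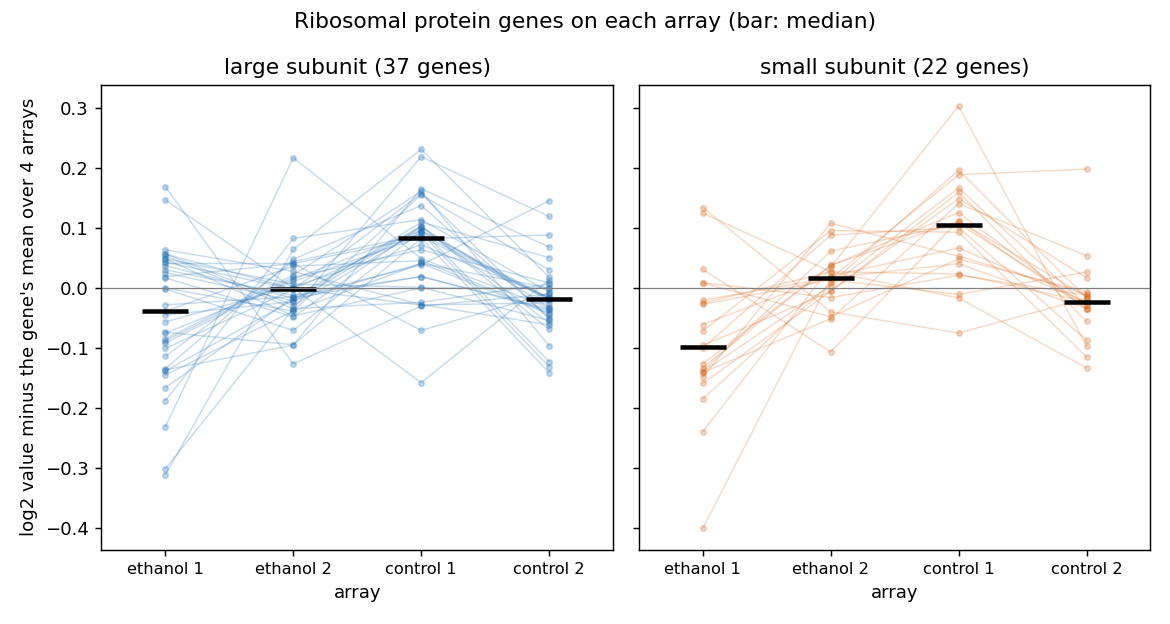
Log2 signal of the 37 large-subunit and 22 small-subunit members in each of the 4 arrays, minus the mean of the gene over the arrays. A thin line joins the values of a gene, and a black bar marks the median of the subunit. Control 1 is the highest array in 39 of the 59 members, and ethanol 1 is the lowest in 52.5% of them.

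Of 9 listed paralogs of ribosomal proteins, 5 were members. Of these 4 were above 0, where 54.2% of all genes were, and 1 was below 0, with a median of 0.04 that was not tested against the others. Rpl3l, the striated muscle relative of Rpl3, measured 6.26 and 6.11 in ethanol and 5.96 and 6.13 in control, a difference of 0.15 ± 0.09. Rpl10l, a testis relative of Rpl10, measured 6.52 and 6.48 in ethanol and 6.43 and 6.39 in control, a difference of 0.09 ± 0.07 without overlap. Rpl39l, another testis gene, measured 5.99 and 5.69 in ethanol and 5.79 and 5.81 in control, a difference of 0.04 ± 0.11. These 3 genes and Rpl12 lay below the median gene of the table (8.15). Rps27l, a p53 target, measured 10.40 and 10.57 in ethanol and 10.57 and 10.36 in control, a difference of 0.02 ± 0.10. Rps4l gave -0.00 ± 0.07 by its brightest probe set and 0.16 ± 0.07 by the one on its own chromosome. Rpl10, the partner of Rpl10l, gave -0.04, and Rps4x, the partner of Rps4l, gave -0.09.

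The remaining members lay between these. In the large subunit Rpl6, Rpl26, Rpl7, Rpl19, Rpl27a, Rpl7a, Rpl34, Rpl23a, Rpl24 and Rpl27 had differences from -0.11 to -0.06. Rpl36, Rpl32l, Rpl12, Rpl13, Rpl29, Rpl41, Rpl36a, Rpl23, Rpl9, Rpl10a and Rpl30 had differences from -0.04 to 0.06. In the small subunit Rps21, Rps20, Rps29 and Rps14 had differences from -0.10 to -0.08, and Rps15, Rps2, Rps12 and Rps13 from -0.04 to -0.01. In none of these genes were the groups apart.

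Ribosomal protein genes have many processed copies across the genome, and the 59 members had 215 one-symbol probe sets. Of the members 20 had 1 probe set and 39 had several, up to 14 for Rps12. Probe set numbers on this platform follow the chromosomes, so the 5 genes on either side of a probe set place it. A probe set was placed only where at least 8 of these neighbours shared a chromosome. Among the 18694 genes with a single probe set that could be placed, this put 99.9% on their own chromosome. For the members this placement put 60 of 215 probe sets on the own chromosome, and 3 with neighbours on mixed chromosomes were counted as elsewhere. The brightest probe set lay on the gene's own chromosome in 29 members and elsewhere in 30. Whether values come from the gene or from a processed copy was not tested. The placement gives only the chromosome, so a copy on the gene's own chromosome would count as own. Rpl27, Rps13, Rps2, Rps4x and Rps9 each had 2 probe sets on their own chromosome. Rpl21, Rpl29, Rpl37a and Rpl7a had none on their own chromosome.

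The choice of probe set changed little for most members. In 26 members a dimmer probe set lay on the own chromosome, and its difference had the same sign as the brightest one in 22. The signs were opposite in Rpl23, Rpl9, Rps14 and Rps4l. The median gap between both differences was 0.025, and the largest was 0.27, in Rpsa. Of the 39 members with several probe sets, 10 had differences on both sides of 0. Over all 215 probe sets 167 were below 0, but 19 probe sets share all 4 values with another of their gene, so they are not independent. The median was -0.05 for the 60 on the own chromosome, of which 43 were below 0, and -0.04 for the 155 elsewhere, of which 124 were below 0.

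**Figure D4:**
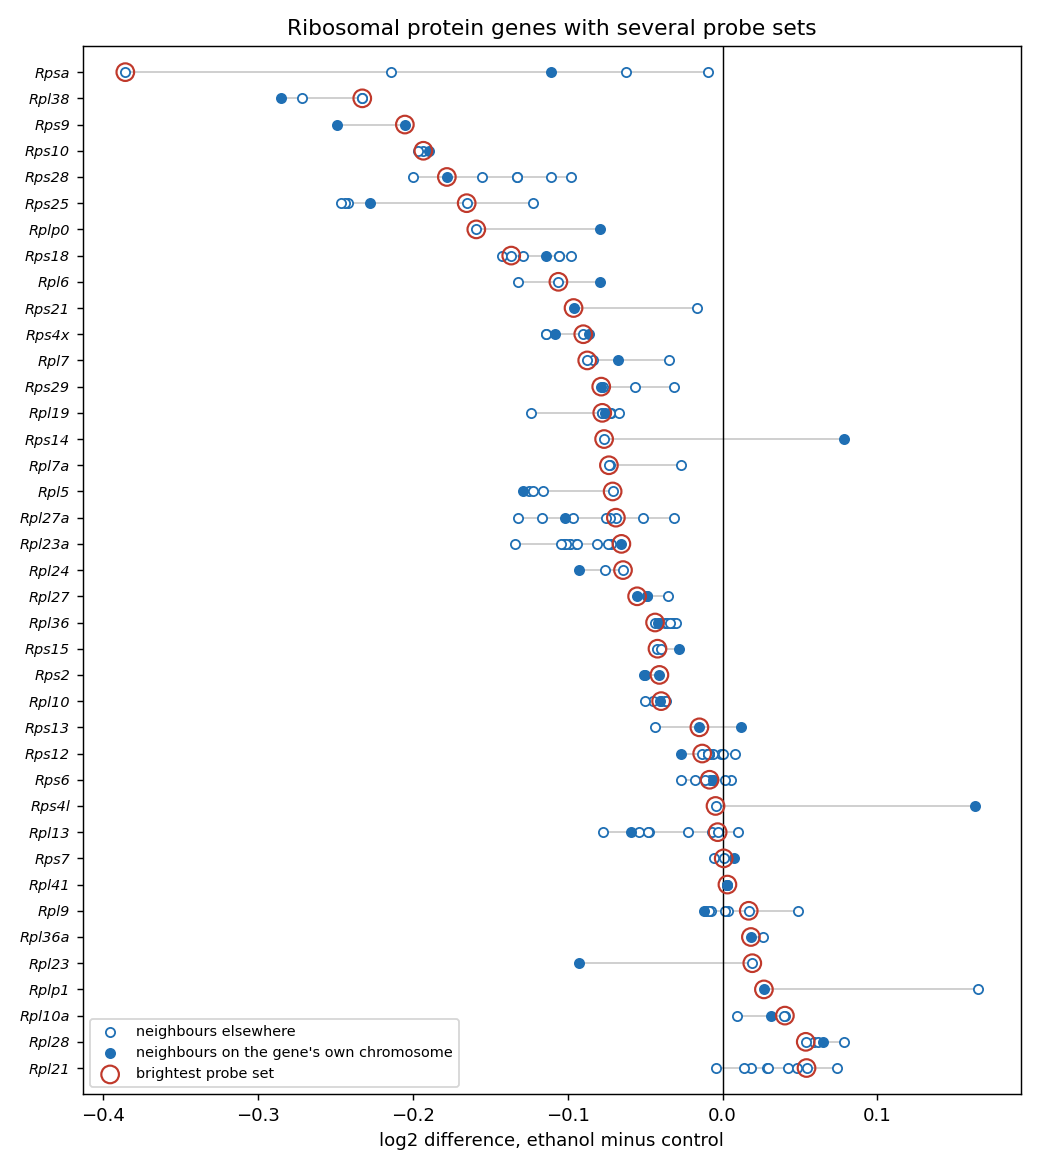
Log2 difference, ethanol minus control, of each probe set of the members with several, filled where its neighbours lie on the gene's own chromosome and ringed in red where it is the brightest. Probe sets of a gene mostly lie close together, Rpsa spreads from -0.39 to -0.01, and 10 of the 39 genes have probe sets on both sides of 0.

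The list of members is not the whole ribosome. Of 77 canonical genes, 53 were members, and 16 were found only on probe sets with several symbols, among them Rpl3, Rpl11, Rpl32, Rps24 and Rps27. Rps3a1 has its own probe set but a name outside the rule. It measured 10.20 and 10.10 in ethanol and 10.33 and 10.18 in control, a difference of -0.11 ± 0.08.

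Motifs of factors known to act at these promoters were counted on both strands of the 300 bases around each start, from 250 before to 50 after. CCGGAA, the core bound by ETS factors, stood in 44.6% of the members' promoters and in 18.7% of all protein-coding ones. The palindromic motif bound by Zbtb33 stood in 12.5% against 0.673%. GGGCGG, bound by Sp1, stood in 55.4% against 46.2%, and AAGATGG, bound by Yy1, in 7.14% against 6.24%. Motifs can overlap or stand side by side. They are shown in the 60 bases before the start of 4 members, with motifs in capitals, chosen because they hold an Sp1 site beside an ETS core, a single ETS core, a repeated ETS core and the Zbtb33 motif.
Rpl38 (chr11:114668520-114668579, + strand): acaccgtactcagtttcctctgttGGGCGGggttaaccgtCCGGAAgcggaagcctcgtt
Rps10 (chr17:27635245-27635304, - strand): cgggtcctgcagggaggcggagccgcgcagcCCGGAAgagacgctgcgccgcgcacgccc
Rpl27 (chr11:101442185-101442244, + strand): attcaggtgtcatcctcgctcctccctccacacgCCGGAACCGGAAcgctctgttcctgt
Rps6 (chr4:86857368-86857427, - strand): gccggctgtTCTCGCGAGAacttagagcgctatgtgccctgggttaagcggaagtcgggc
The members' differences were also set beside these sequences. Of the 17 members with a run of at least 8 pyrimidines 14 were below 0, with a median of -0.07, and of the 30 with promoters but no such run 19 were below 0, with a median of -0.04. Of the 24 with an ETS core 18 were below 0, with a median of -0.07, and of the 23 without it 15, with a median of -0.02. The other motifs went the opposite way in their medians, but not all of them in their counts below 0. The 4 members with a Yy1 motif had a median of 0.04 and 1 was below 0, and the 43 without it had a median of -0.06. The medians were -0.04 with an Sp1 motif and -0.05 without it, and -0.03 with the Zbtb33 motif and -0.06 without it. Below 0 were 19 of the 27 members with an Sp1 motif and 14 of the 20 without it. For the Zbtb33 motif they were 5 of 6 with it and 28 of 41 without it. None of these gaps was tested.

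Genes that act with the ribosomal proteins were counted the same way. Of 14 measured translation factors and partners listed as messages of the same pyrimidine class, 10 were below 0 and 0 passed an unadjusted p of 0.05 by limma, with a median of -0.04. A run of at least 8 pyrimidines stood in 3 of the 10 promoters found for this list (30.0%). Naca, which binds new proteins at the tunnel exit, gave -0.17 ± 0.10, and the poly(A)-binding protein gene Pabpc1 gave 0.11 ± 0.08. Of 30 ribosome assembly genes 18 were below 0, with a median of -0.05, where 45.8% of all genes were below 0. The unadjusted threshold was passed by 2 of the 30, and by 2.94% of all genes. The 2 were the nucleolin gene Ncl at -0.28 ± 0.11 and the large-subunit maturation factor Eif6 at -0.21 ± 0.08. Of 11 genes of RNA polymerase I and its factors, which make the ribosomal RNA, 6 were below 0 and 2 passed the unadjusted threshold. Polr1c gave -0.31 ± 0.09 and Polr1e gave -0.18 ± 0.07. Of 13 measured genes of mTORC1 and MYC control 6 were below 0, with a median of 0.003. Among them Mlst8, a subunit of mTORC1, gave 0.17 ± 0.07 and the S6 kinase gene Rps6kb2 gave 0.17 ± 0.07. None of these genes passed an adjusted p of 0.05 in the limma fit.

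The mitochondrial ribosome, built from a separate set of nuclear genes, was compared as a second set. Of its 77 genes 49 were below 0, with a median of -0.03, and 3 passed the unadjusted threshold, which 2.94% of all genes passed. Mrpl40 gave -0.21 ± 0.07 and Mrps28 gave -0.23 ± 0.08. Its groups were apart in 21 genes with ethanol lower and in 9 with ethanol higher, beside 14.0% and 17.4% of all genes. The pattern over arrays differed from that of the cytosolic genes in these values: ethanol 1 had a median of -0.08 against control 1 and -0.07 against control 2, and the 2 controls differed by 0.01. For the cytosolic genes the 2 controls differed by 0.10. This difference between the sets was not tested.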

How the data were processed

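Total RNA of pooled fetal brains was hybridised to 4 Affymetrix whole-transcript arrays. The authors deposited 1 value per probe set and array, taken here as log2 intensity because of its range. Per the submitters' processing notes the software was Partek 6.6. For normalization, background correction, summary method and log base, the sources used here name nothing. Of 35556 probe sets 21789 had 1 symbol, 1621 several and 12146 none, and 21698 were matched by Entrez number to RefSeq names (GRCm38.p6), which gave 19938 genes by their brightest probe set. Groups were compared with limma 3.58.1 (R 4.3.3, lmFit and eBayes, all 4 arrays, 2 residual degrees of freedom and 5.65 with the shared variance, 2-sided, Benjamini-Hochberg over all genes), which was tested on simulated data. The number of arrays limits the precision. Gene lists are described by counts and medians only. The members and lists were chosen with earlier results of these data known. Values are printed for, in each subunit, the 6 lower and 4 higher members with the smallest p, stalk genes, Rpl5, Rpsa, Rps6, paralogs, members with several probe sets (some by range) and the 2 leading genes of related lists. Other members, such as Rpl8, Rps19 and Rpl28, were picked after their values were seen. Alternatives were another normalization, median centring, a filter on dim genes, other choices of probe sets, other variance models, a replicate block and leaving out each array. Protein sequences were not used here.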

Additional observations from a re-analysis of the deposited data

How the results depend on the processing

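No member passed an adjusted p of 0.05 under any alternative, and the smallest adjusted p of a member was 0.573 (limma). The count past an unadjusted p of 0.05 and a fold of 1.2 was 2. It became 1 when the probe sets of a gene were averaged (0.958% of all genes under the same setting), 0 by the ordinary test (0.186%), 5 with a fold of 1.1 (2.94%) and 1 of 55 with own-chromosome probe sets (1.01%), an alternative chosen after seeing the data. It was 0 to 4 when leaving out 1 array (0.712% to 6.34%), and 4 of the members' 215 probe sets passed (1.01% of all probe sets). Groups did not overlap in 41 of the 215 probe sets (31.2% of all probe sets), nor in 26 to 49 members without 1 array, where 58.4% to 74.4% of all genes were apart. Fewer arrays make separation easier. Without 1 array the median of the members ran from -0.11 to 0.00042, of the large subunit from -0.10 to 0.0031, of the small subunit from -0.13 to -0.0075, and large minus small from -0.013 to 0.077. For the other changes the cause was not tested.

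Replicate numbers do not pair these arrays by any label, and the correlation between arrays of equal number, after removing group means, was -0.484. With the replicate block 0 members passed the adjusted threshold, 2 passed the unadjusted threshold with the fold, and the median was -0.04. With the numbers crossed, an alternative chosen after seeing the data, the counts were 0 and 2. The shares of all genes in the block and crossed fits are not given here, so these counts have no background beside them.

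Of the members 31 kept their sign in every fit without 1 array and 28 did not. The differences of the latter ran, over the fits without 1 array: Rpl10a from -0.071 to 0.15, Rpl12 from -0.24 to 0.21, Rpl13 from -0.047 to 0.040, Rpl23 from -0.0089 to 0.047, Rpl24 from -0.19 to 0.064, Rpl26 from -0.21 to 0.00042, Rpl29 from -0.046 to 0.048, Rpl30 from -0.054 to 0.17, Rpl32l from -0.12 to 0.054, Rpl36 from -0.12 to 0.037, Rpl36a from -0.026 to 0.062, Rpl39l from -0.11 to 0.19, Rpl41 from -0.039 to 0.045, Rpl5 from -0.15 to 0.0079, Rpl6 from -0.24 to 0.029, Rpl7 from -0.18 to 0.0058, Rpl9 from -0.010 to 0.044, Rplp1 from -0.083 to 0.14, Rps12 from -0.11 to 0.081, Rps13 from -0.035 to 0.0055, Rps15 from -0.087 to 0.0033, Rps19 from -0.17 to 0.086, Rps20 from -0.21 to 0.0051, Rps27l from -0.081 to 0.13, Rps29 from -0.18 to 0.022, Rps4l from -0.042 to 0.033, Rps6 from -0.025 to 0.0083, Rps7 from -0.025 to 0.027. Under other settings 8 members turned sign. Renewed quantile normalization gave Rpl10 0.0089, Rpl13 0.026, Rps13 0.0080, Rps4l 0.024 and Rps6 0.058. Median centring gave Rpl13 0.0023 and Rps4l 0.00090. The mean of probe sets gave Rpl23 -0.037, Rps14 0.0011 and Rps4l 0.079, and own-chromosome probe sets gave Rpl23 -0.093, Rpl9 -0.012, Rps14 0.079 and Rps4l 0.16. Rpl10l, Rpl12, Rpl39l and Rpl3l lie below the median gene, and a filter on dim genes leaves them out.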
